A study of Mus musculus with 9 samples.

Results

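Immature cartilage of the mouse was compared with the mean of the tissues that deposit mineral in the same study, mature cartilage and bone, and the genes that moved the same way and by similar amounts in both were described. All 9 of the 9 libraries entered the comparison, as 3 groups of 3. The group ImC holds immature cartilage, labelled as immature chondrocytes, MatC holds mature cartilage, labelled as mature chondrocytes, and Bone holds bone, labelled as osteoblasts. All 3 groups come from C57BL/6J mice, and the labels name no treatment, age, anatomical site or separate animals, so a p-value here reflects only how these samples vary, which may be technical. Reads were counted for 43472 genes, of which 14257 had enough reads to be tested. A gene was called at an adjusted p under 0.05 (Benjamini-Hochberg, edgeR's quasi-likelihood test) for the mean of MatC and Bone against ImC. A called gene was termed shared where its log2 fold change against ImC was at least 1 in the same direction in MatC and in Bone and the changes in the tissues lay at most 1 apart.

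In endochondral ossification, chondrocytes first divide and build a matrix of type II collagen and aggrecan under the control of Sox9, Sox5 and Sox6. They then stop dividing, enlarge, switch to type X collagen and let mineral form in the matrix around them. Osteoblasts build a matrix of type I collagen and mineralize it as well, and Runx2, Sp7, tissue-nonspecific alkaline phosphatase and the acidic phosphoproteins of the matrix are known from both cell types.

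Library totals ran from 7913684 to 23159547 reads. Mitochondrially encoded genes took 44.1% ± 11.6 of the reads in ImC, 61.7% ± 25.1 in MatC and 8.01% ± 0.84 in Bone (SD, n = 3 each). MatC3 stood apart with 82.3% such reads and 14940 genes with a read, against at least 17535 in the other libraries, and 3 reads in it were worth 0.849 CPM (reads per 1000000, scaled by TMM factors), against at most 0.257 CPM elsewhere. The labelled tissues held their defining transcripts. Col2a1, type II collagen, stood at 8402, 8574 and 9782 CPM in ImC, 8396, 4769 and 8400 CPM in MatC and 682, 388 and 297 CPM in Bone. Col10a1, type X collagen, stood at 0.75, 0.447 and 0.427 CPM in ImC, 817, 933 and 4760 CPM in MatC and 1.68, 2.48 and 0.845 CPM in Bone. Col1a1, a chain of type I collagen, stood at 222, 367 and 100.1 CPM in ImC, 1487, 7726 and 164 CPM in MatC and 19750, 23190 and 20610 CPM in Bone. Cartilage collagen was thus high in both cartilages, type X collagen in the MatC libraries and type I collagen in the Bone libraries, with MatC2 above the other MatC libraries in type I collagen. These are bulk tissues, so fewer cells of a type and less RNA per cell cannot be told apart.

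In the mineralizing tissues 1674 genes were higher than in ImC (11.7% of the genes tested) and 1968 were lower (13.8%). By the rule above 682 of the higher genes (4.78% of the genes tested) and 580 of the lower genes (4.07%) were shared. Leading genes were taken from those with a mean of at least 20 CPM and no overlap with ImC. The higher set was led by collagenase 3, dentin matrix protein 1, the sodium-proton exchanger Slc9a2, osteopontin and the citrate transporter Slc13a5. The lower set was led by complement C4b, carbonic anhydrase 9 and genes of cell division. Dentin matrix protein 1 and osteopontin were highest in MatC2 and Bone1, and an alternative test, limma-voom, did not call dentin matrix protein 1. The median log2 fold change was 2.72 over the shared higher genes and -1.75 over the shared lower genes, beside -0.01 over all genes tested. The changes in MatC and in Bone are both taken from the same ImC libraries, so a deviation of ImC moves both the same way, and the counts are a description by the rule.

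Of the other called genes, 708 higher and 925 lower genes moved the same way in both tissues by amounts more than 1 apart. Bone had the larger change in 566 and 882 of these, and MatC in 142 and 43. A further 277 higher and 409 lower genes lay within 1 of each other but changed by less than 1 in at least one tissue, and 7 and 54 genes moved in opposite directions. In the plot of the change in one tissue against the other, the shared genes lie along the diagonal between the dotted lines, and a second group of called genes spreads straight down from the origin, lower in Bone with little change in MatC.

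**Figure D1:**
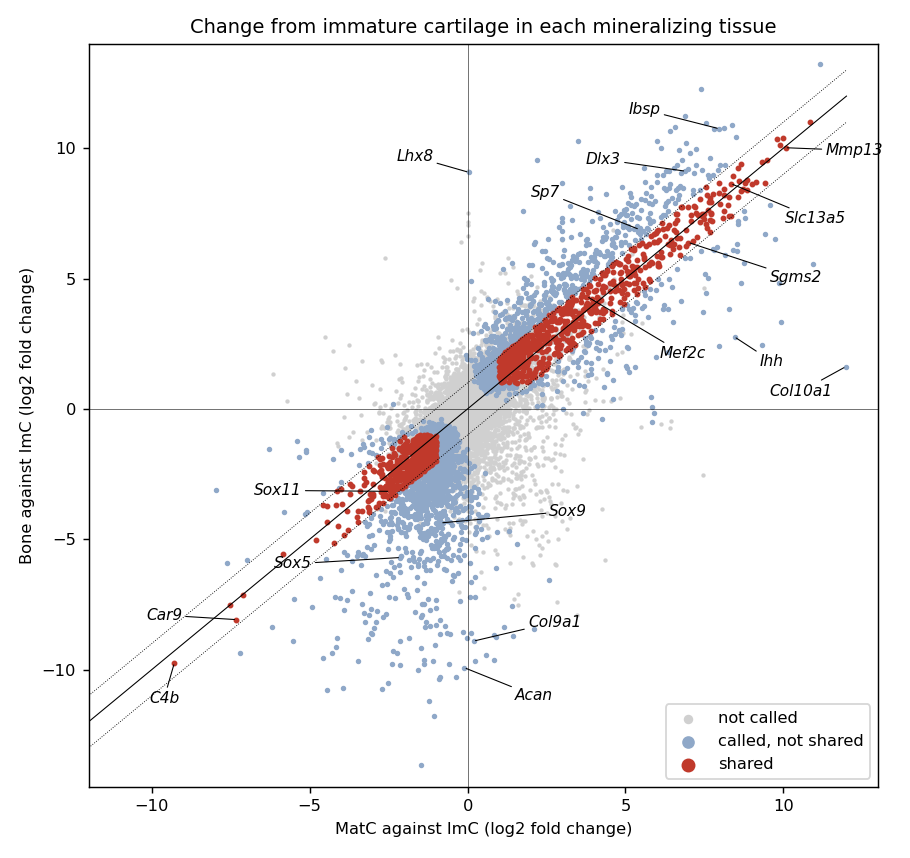
Log2 fold change against immature cartilage in mature cartilage (x axis) and in bone (y axis), 1 point per gene tested. Red points are shared genes, blue points are other called genes, grey points were not called, the solid line marks equal changes and the dotted lines mark changes 1 apart. Mmp13 lies near the solid line at 10.07 and 10.02, while Col10a1 lies far to its right and Acan far below it.

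Similar values do not bound the difference closely with 3 libraries a group. Of the 1262 shared genes, 47 higher and 65 lower genes had a 95% interval of Bone minus MatC that lay wholly within 1 on the log2 scale. Calls in each tissue on its own against ImC were made for 365 of the shared higher and 176 of the shared lower genes; over all genes tested, 5.41% were higher and 2.29% lower in MatC, and 14.3% higher and 16.8% lower in Bone. Every ImC library lay below all 6 other libraries in 499 of the shared higher genes, beside 9.13% of all genes tested, and above all 6 in 472 of the shared lower genes, beside 10.1%. The members nearest to the limit of 1 show how the rule divides a continuous range. B2m (1.28 in MatC and 2.27 in Bone) and Tmsb10 (1.43 in MatC and 2.42 in Bone) lay just inside it, and Ankrd44 (2.26 in MatC and 3.26 in Bone) and Pdlim7 (2.03 in MatC and 1.02 in Bone) just outside. Among lower genes Itga9 (-1.56 in MatC and -2.55 in Bone) and Pdcd11 (-1.14 in MatC and -2.13 in Bone) lay just inside, and Sulf2 (-1.98 in MatC and -2.99 in Bone) and Ifi27 (-2.38 in MatC and -1.37 in Bone) just outside.

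The scaling of the libraries set how many genes were shared. Dividing by library size alone, with no TMM factor, moved the median difference of Bone and MatC over all genes by 1.01 on the log2 scale, and 178 higher and 615 lower genes were then shared, of which 347 were among the 1262. Without MatC3 the numbers were 982 and 733, without ImC1 447 and 470, without Bone2 476 and 383, and without Bone3 452 and 359. Of the 183 genes singled out by the naming rules, 128 kept direction and call under each alternative that gave them a value (17 for 173 genes and 16 for 10), and 55 lost the call in at least 1 without a change of direction.

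Transcription factors that direct bone formation were higher in the mineralizing tissues than in ImC. Of the 22 in the list, 14 were higher and 1 was lower, beside 11.7% and 13.8% of all genes tested, with a median log2 fold change of 2.55 against -0.01. Of the 14, 6 were shared (4.78% of all genes tested). That shared count was 3 without MatC1 or Bone3 and 2 with library size only. The counts of every list below stand beside the same shares of all genes tested, 11.7% higher and 13.8% lower. Shared genes made up 4.78% (higher) and 4.07% (lower) of all genes tested. All lists were chosen with earlier results of these data known. Mef2c, a MADS-box factor needed for chondrocyte hypertrophy (chr13:83504034-83667080, + strand in GRCm38), stood at 34.5, 41 and 30.2 CPM in ImC, 634, 442 and 383 CPM in MatC and 696, 653 and 744 CPM in Bone. Every MatC and Bone library lay far above the 3 ImC libraries. The log2 fold change against ImC was 4.05 ± 0.31 (SE) with an adjusted p of 8.63e-05, made up of 3.79 in MatC and 4.31 in Bone, and Bone minus MatC had a 95% interval of -0.11 to 1.16.

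Runx2, the factor without which neither hypertrophic cartilage nor osteoblasts form normally, stood at 36.7, 1.64 and 33.2 CPM in ImC, 224, 192 and 130.1 CPM in MatC and 375, 353 and 300.4 CPM in Bone. The groups did not overlap, and ImC2 lay far below the other ImC libraries. Runx2 rose by 3.39 ± 0.78 (SE) with an adjusted p of 0.0127, with 2.94 in MatC and 3.85 in Bone, and limma-voom gave 4.45. Dlx5, a distal-less homeobox factor of the osteoblast lineage, stood at 4, 0.248 and 0.285 CPM in ImC, 34.3, 25.4 and 11 CPM in MatC and 50.1, 44.1 and 45.4 CPM in Bone. ImC1 was the high ImC library and still lay below all MatC and Bone libraries. It rose by 4.52 ± 0.88 (SE) with an adjusted p of 0.0063, 4.04 in MatC and 5.00 in Bone, and by 6.94 without ImC1 and 5.71 with limma-voom.

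Foxo1, a forkhead factor that acts in osteoblasts and growth plate chondrocytes, stood at 13.5, 14.2 and 17.4 CPM in ImC, 69.3, 51.3 and 90 CPM in MatC and 105, 124 and 121 CPM in Bone and rose by 2.59 ± 0.27 (SE) with an adjusted p of 0.000317. Every ImC library lay below all others. The remaining shared members were Mef2d and Twist1, a basic helix-loop-helix factor. Prrx1, a paired-related homeobox factor of limb mesenchyme, was among the leading shared genes and stood at 5.5, 4.02 and 8.55 CPM in ImC, 455, 176 and 43.6 CPM in MatC and 278, 228 and 219.9 CPM in Bone. All ImC libraries lay below all others, and MatC3 was the lowest of the other 6. It rose by 5.28 ± 0.74 (SE) with an adjusted p of 0.00132, 5.22 in MatC and 5.33 in Bone.

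Further factors of the osteoblast lineage rose by amounts more than 1 apart, larger in Bone. Sp7, or osterix, stood at 9.41, 1.04 and 1.99 CPM in ImC, 129.5, 202 and 198 CPM in MatC and 517, 480.2 and 459 CPM in Bone. Its 3 Bone libraries lay above all MatC libraries, which lay above all ImC libraries. Sp7 rose by 6.16 ± 0.75 (SE) with an adjusted p of 0.000695, 5.43 in MatC and 6.89 in Bone, and by 7.61 without ImC1 and 6.90 with limma-voom. The difference of Bone and MatC did not pass the threshold for Sp7 (adjusted p = 0.199 by edgeR, interval 0.07 to 2.85). It did for Dlx3, a homeobox factor of tooth and bone (6.90 in MatC and 9.12 in Bone, adjusted p = 0.0382 by edgeR), and for Tcf7, a nuclear partner of beta-catenin (4.87 in MatC and 6.39 in Bone, adjusted p = 0.0207 by edgeR), beside 6.05% of all genes tested. Without ImC1 the change of Dlx3 was 8.61 in place of 8.01. The one factor of the list that fell was Sox11, a SoxC factor of skeletal progenitors, and it was shared.

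Most markers of hypertrophic chondrocytes rose, and several led the shared genes. Of 21 tested, 13 rose (61.9%) and 2 fell (9.52%), with a median log2 fold change of 4.66. Hdac4 and Foxa3 fell, and Foxa3 had Bone minus MatC at -8.39, so its decrease lay mostly in Bone. The list was chosen with earlier results of these data known, so its counts are a description. Alpl, Ibsp, Runx2, Sp7 and Spp1 are in the osteoblast list as well. The risen members were Alpl, Col10a1, Ibsp, Ihh, Loxl4, Mef2c, Mmp13, Panx3, Runx2, Slc13a5, Smpd3, Sp7 and Spp1, and 8 of them were shared, or 3 with library size only. All 13 lay above every ImC library in each of the 6 MatC and Bone libraries, MatC3 included.

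Mmp13, collagenase 3, which cleaves the collagen of mineralizing matrix (chr9:7272514-7283331, + strand), stood at 0, 0 and 0.0712 CPM in ImC, 7.28, 50.3 and 41.9 CPM in MatC and 21.4, 37.8 and 37.2 CPM in Bone. The 3 ImC libraries held 1 read in all, and every other library lay above 7 CPM. The ratio to ImC was 1430-fold (95% counting interval 256 to 56600) in MatC and 1440-fold (95% counting interval 259 to 57000) in Bone, where intervals cover counting error only. The adjusted p was 0.000317, and Bone minus MatC on the log2 scale had a 95% interval of -1.36 to 1.28.

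Panx3, a pannexin channel protein of cartilage and bone, stood at 22.6, 0.496 and 1.57 CPM in ImC, 699.7, 327 and 716 CPM in MatC and 380, 546 and 459.7 CPM in Bone. ImC1 held most of the ImC signal and lay below all other groups' libraries. Panx3 rose by 5.99 ± 1.18 (SE) with an adjusted p of 0.00641, 6.16 in MatC and 5.83 in Bone, and by 9.01 without ImC1, 7.86 with limma-voom and 7.05 with the replicate block. Loxl4, a lysyl oxidase that cross-links collagen, stood at 1.17, 1.09 and 1.35 CPM in ImC, 55.1, 53.9 and 130.4 CPM in MatC and 61.1, 58.7 and 49.1 CPM in Bone, and rose by 5.79 ± 0.43 (SE) with an adjusted p of 8.62e-05, 6.04 in MatC and 5.54 in Bone. Its ImC libraries lay below all others, and the interval of Bone minus MatC was -1.27 to 0.28.

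Slc13a5, a sodium-coupled citrate transporter known for its role in the citrate content of bone mineral (chr11:72241989-72267222, - strand), stood at 2, 0.844 and 0.57 CPM in ImC, 223, 344 and 532 CPM in MatC and 408, 418 and 517 CPM in Bone. The ImC libraries lay at or under 2 CPM, far below all others. Slc13a5 rose by 8.49 ± 0.60 (SE) with an adjusted p of 6.61e-05, 8.35 in MatC and 8.64 in Bone, and by 9.14 without ImC1.

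Sgms2, sphingomyelin synthase (chr3:131318985-131491411, - strand), stood at 5.5, 7.2 and 5.06 CPM in ImC, 899, 531 and 842 CPM in MatC and 448, 512 and 527 CPM in Bone. MatC and Bone did not overlap with ImC. The increase was 6.69 ± 0.37 (SE) with an adjusted p of 1.82e-05, 6.99 in MatC and 6.38 in Bone, with a 95% interval of Bone minus MatC of -1.27 to 0.05. Smpd3, the neutral sphingomyelinase whose loss impairs mineralization in mice, stood at 29.2, 4.02 and 17.9 CPM in ImC, 508, 530.2 and 475 CPM in MatC and 399.5, 357 and 342 CPM in Bone. It rose by 4.66 ± 0.59 (SE) with an adjusted p of 0.000845, 4.89 in MatC and 4.43 in Bone, and by 5.30 without ImC1. Slc9a2, a sodium-proton exchanger, held 1 read over the ImC libraries and 35.8, 21.1 and 6.51 CPM in MatC and 33.5, 16.4 and 18.9 CPM in Bone, ratios of 1190-fold (95% counting interval 213 to 47000) and 1100-fold (95% counting interval 198 to 43600).

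Genes of mineral deposition and phosphate handling rose in 12 of 20 cases and fell in 2, with a median log2 fold change of 2.90. The 5 shared members were Ank, Dmp1, Slc8a3, Smpd3 and Spp1, of which 3 were shared without MatC2 or Bone1, with limma-voom or with the replicate block and 2 with library size only. Spp1, osteopontin, which binds mineral and integrins (chr5:104435118-104441050, + strand), stood at 0.583, 0.745 and 3.63 CPM in ImC, 66.8, 1834 and 644 CPM in MatC and 1853, 49.1 and 54.7 CPM in Bone. Every MatC and Bone library lay above ImC, with MatC2 and Bone1 high and MatC1, Bone2 and Bone3 low. The change of Spp1 was 8.81 ± 1.93 (SE) with an adjusted p of 0.01, and it was 7.83 with limma-voom, 10.09 without ImC3, 8.19 without MatC2 and 7.0 without Bone1. Dmp1, which nucleates mineral in bone matrix (chr5:104202613-104214102, + strand), had the same high libraries, at 0.25, 0.347 and 0.57 CPM in ImC, 29.6, 1087 and 17.2 CPM in MatC and 1183, 75.3 and 70 CPM in Bone. The change of Dmp1 was 10 ± 2.12 (SE) with an adjusted p of 0.00891, and it was 8.32 with limma-voom, 9.26 with the replicate block, 8.01 without MatC2 and 8.71 without Bone1, and limma-voom did not call it.

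Alkaline phosphatase and other mineral genes had point estimates more than 1 larger in Bone. Alpl, the enzyme that removes the mineral inhibitor pyrophosphate, stood at 0.916, 0.248 and 1.28 CPM in ImC, 113, 359 and 137 CPM in MatC and 397, 636 and 546 CPM in Bone. ImC was near 1 CPM, and no MatC library reached the lowest Bone library. Its changes were 7.99 in MatC and 9.36 in Bone. Ibsp, bone sialoprotein, stood at 9.25, 6.7 and 16.3 CPM in ImC, 1914, 5943 and 185 CPM in MatC and 20080, 19060 and 16290 CPM in Bone, with changes of 7.96 in MatC and 10.75 in Bone. Phex, an endopeptidase of phosphate balance, changed by 6.77 in MatC and 9.07 in Bone. The tissues' difference did not pass the threshold by edgeR in these genes, with adjusted p = 0.163 for Alpl, adjusted p = 0.107 for Ibsp and adjusted p = 0.0713 for Phex. Without MatC2 the change of the mean was 8.69 in place of 9.36 for Ibsp and 7.27 in place of 7.92 for Phex. The decreases of the mean were Mgp, an inhibitor of mineral formation, at -2.30 (-1.69 without ImC2), and Slc20a1, a phosphate transporter, at -1.02. Bone minus MatC was -4.44 for Mgp and -1.84 for Slc20a1, so nearly all of each decrease lay in Bone. The call of Slc20a1 was lost without ImC3, MatC2, Bone1 or Bone2 and with library size only.

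The plot of the leading shared increases holds 12 genes, chosen on condition that the 3 ImC libraries lay apart from the other 6. Itgb3, the integrin beta3 chain that pairs with the alphav chain, belongs to this group and rose by 5.65 ± 0.79 (SE) with an adjusted p of 0.00129, 5.74 in MatC and 5.56 in Bone. Postn, periostin of periosteum and perichondrium, rose by 5.20 ± 1.08 (SE) with an adjusted p of 0.00832, 5.57 in MatC and 4.83 in Bone, and by 7.80 without ImC2 and 5.94 with limma-voom.

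**Figure D2:**
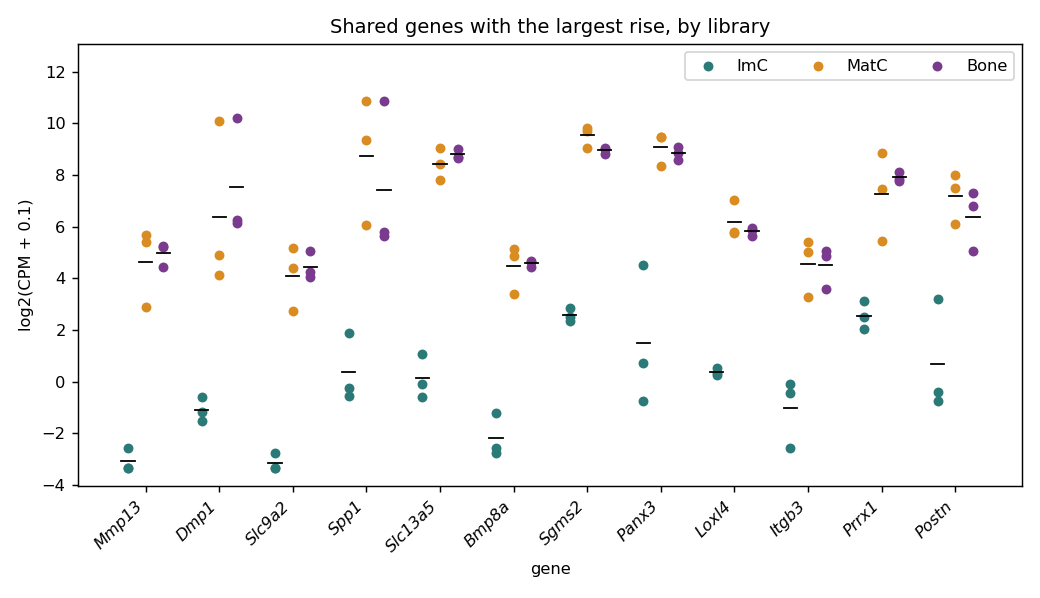
Levels of the 12 shared genes with the largest increases among those with a mean of at least 20 CPM in MatC and in Bone and no overlap with ImC, as log2 of CPM plus 0.1, 1 point per library and a black bar at the mean of the 3 log values of a group. In each gene the ImC points lie below all MatC and Bone points. MatC2 and Bone1 lie highest in Spp1 and Dmp1, while Sgms2 and Slc13a5 are nearly level across the 6 mineralizing libraries.

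Promoters of leading shared genes were read for the core motif of RUNX factors, the letters TGTGGT or, on the other strand, ACCACA. Panx3, Smpd3, Gdf5 and C4b had no entry in the promoter table, and Spp1, Dmp1 and Bmp8a were added after their values were seen. Because genes were added in this way, the number of them with the motif is not a result. Of 2 listed promoters each for Spp1 and Dmp1, the one nearest to the annotated gene start was taken. For Mmp13 and the added genes the 250 bases before the start site are shown. They are RefSeq sequences of GRCm38.p6, 5′ to 3′ on the gene's strand, with the motif in capitals: Mmp13 at chr9:7272264-7272513, + strand, Spp1 at chr5:104434861-104435110, + strand, Dmp1 at chr5:104202367-104202616, + strand and Bmp8a at chr4:123343253-123343502, - strand.
Mmp13: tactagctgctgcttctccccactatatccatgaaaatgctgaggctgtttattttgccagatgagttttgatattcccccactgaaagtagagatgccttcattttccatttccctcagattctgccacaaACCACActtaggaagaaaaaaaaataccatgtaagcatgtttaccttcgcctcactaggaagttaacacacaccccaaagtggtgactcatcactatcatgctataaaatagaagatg
Spp1: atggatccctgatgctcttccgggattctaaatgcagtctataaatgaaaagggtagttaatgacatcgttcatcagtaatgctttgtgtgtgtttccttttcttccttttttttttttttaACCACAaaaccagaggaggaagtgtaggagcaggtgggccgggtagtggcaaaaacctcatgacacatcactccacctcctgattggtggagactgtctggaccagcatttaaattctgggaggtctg
Dmp1: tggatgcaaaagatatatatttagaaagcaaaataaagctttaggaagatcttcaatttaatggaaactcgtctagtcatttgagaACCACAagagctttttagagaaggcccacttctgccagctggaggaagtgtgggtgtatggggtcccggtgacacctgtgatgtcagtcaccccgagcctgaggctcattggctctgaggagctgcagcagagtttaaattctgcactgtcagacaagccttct
Bmp8a: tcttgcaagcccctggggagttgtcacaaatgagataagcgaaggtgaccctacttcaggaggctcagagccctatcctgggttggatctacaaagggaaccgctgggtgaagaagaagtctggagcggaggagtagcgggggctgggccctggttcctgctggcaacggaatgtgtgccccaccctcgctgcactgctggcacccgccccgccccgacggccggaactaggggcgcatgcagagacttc

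The motif began 118 bases before the start site in Mmp13, 128 bases before it in Spp1 and 164 bases before it in Dmp1, and these letters were absent from the Bmp8a window. Over windows of 300 bases, 250 before to 50 after a start, 84 of 649 promoters of shared higher genes held the letters on either strand (12.9%). The share was 12.1% (59 of 487) for shared lower genes, 12.1% for all genes tested and 16.8% for all 32851 promoters in the table. These promoters belonged to 462 of the 682 shared higher genes and 385 of the 580 shared lower genes. A match of letters is a description of the sequence and shows no binding.

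Ligands of the bone morphogenetic protein family were among the shared genes in both directions. In the BMP and TGF-beta list 11 of 35 genes were higher (31.4%, beside 11.7% of all genes tested) and 4 lower (11.4%, beside 13.8%), with a median of 0.84. Acvrl1, Bmp2, Bmp3, Bmp7, Bmp8a and Smad9 were the 6 shared increases. Without ImC1 7 were higher and 2 of them shared, without ImC3 7 were higher, without MatC1, with the replicate block or with no filter on low counts 3 were shared, and with library size only 5 were higher and no increase was shared. Of the 2 shared decreases, none was shared without MatC3 or with limma-voom, and 1 was without Bone2 or Bone3 or with library size only. Bmp8a, a ligand of the family (chr4:123312645-123343252, - strand), stood at 0.333, 0.0496 and 0.0712 CPM in ImC, 10.3, 34.7 and 29.1 CPM in MatC and 25, 21.8 and 25.4 CPM in Bone. The MatC and Bone levels overlapped and lay above all ImC libraries. It rose by 7.40 ± 0.69 (SE) with an adjusted p of 0.000231, 7.42 in MatC and 7.38 in Bone, with a 95% interval of Bone minus MatC of -1.10 to 1.04, and by 8.50 without ImC1.

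The shared decreases of this family were ligands as well. Gdf5, a ligand of joint formation, stood at 6.83, 29.5 and 6.7 CPM in ImC, 0.682, 0.211 and 1.13 CPM in MatC and 1.08, 1.2 and 1.01 CPM in Bone. ImC2 was the high library, and the other ImC libraries still lay above all 6. The change was -4.15 ± 0.59 (SE) with an adjusted p of 0.00136, and -3.04 without ImC2. Inhba, the activin A subunit, stood at 6.75, 51.2 and 6.77 CPM in ImC, 3.94, 2.89 and 1.7 CPM in MatC and 0.65, 1.97 and 2.2 CPM in Bone. Its ImC libraries lay above all others, and it fell by 3.31 ± 0.66 (SE) with an adjusted p of 0.00693, or by 1.64 without ImC2.

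Of 34 Wnt pathway genes, 11 were higher (32.4%, beside 11.7% of all genes tested) and 4 lower (11.8%, beside 13.8%). The counts were 7 and 1 without ImC1. Without Bone3 2 fell, and with library size only 1 fell and 2 were shared increases. The shared increases were the ligand Wnt10b, the R-spondin Rspo2 and the antagonists Frzb, Notum and Sost with the co-receptor Lrp4. Wnt10b held 3 reads over ImC and 2.8, 5.15 and 3.39 CPM in MatC and 4.22, 2.4 and 3.49 CPM in Bone, ratios of 60.8-fold (95% counting interval 20.3 to 299) and 54-fold (95% counting interval 18.2 to 264). Sost, sclerostin, which osteocytes secrete, held 1 read in ImC, and the ratios were 185-fold (95% counting interval 32.6 to 7380) and 277-fold (95% counting interval 49.3 to 11000). Dkk1, a secreted antagonist, was called higher with changes of 6.52 in MatC and 9.22 in Bone, and the difference of the tissues did not pass (adjusted p = 0.078 by edgeR). Of the 4 that fell, Sfrp5, a secreted Wnt antagonist, fell 1180-fold (95% counting interval 211 to 46700) in Bone, where 1 read was left, and its log2 fold change in MatC was -4.58.

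Notch genes rose in 9 of 14 cases and Maml2 fell, with a median of 3.23. The shared members were the ligand Dll4, the targets Hey2 and Heyl and the modifier Lfng. Dll4 held no read in ImC and was at least 43.3-fold higher in MatC and at least 56.6-fold higher in Bone. Dll4, Hey2 and Notch4 are also known from endothelium. The shared count of 4 was 1 without MatC2 or with library size only, and 2 with the replicate block or a minimum count of 30. In MatC3 itself 3 of the 9 risen genes lay above every ImC library. The fall of Maml2, -1.32, was not called without ImC1, MatC1 or any 1 of the Bone libraries.

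Signals to osteoclasts included the pair of RANKL and its decoy receptor. Tnfsf11, RANKL, held 1 read in ImC and stood at 11.1, 4.79 and 2.26 CPM in MatC and 2.71, 3.68 and 3.38 CPM in Bone, ratios of 333-fold (95% counting interval 59.2 to 13200) and 148-fold (95% counting interval 26.1 to 5860). The decoy receptor Tnfrsf11b, osteoprotegerin, fell by 2.34 ± 0.72 (SE) with an adjusted p of 0.0375. Its ImC libraries stood at 14.8, 15.5 and 0.641 CPM, so ImC3 lay below the others and within the range of MatC and Bone, and the call was lost with limma-voom (-1.56), with the replicate block and without any 1 library except ImC3. Of the 8 genes in the list 2 were higher and 2 lower, and 1 was higher without ImC1, Bone2 or Bone3. Without Bone2 or Bone3 no decrease was called, and without any 1 of the other 7 libraries 1 was.

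Hedgehog and PTHrP genes fell in 6 of 15 cases, with a median of -0.72, or in 3 without ImC2 and 1 with library size only. The 3 shared decreases were Boc and Cdon, hedgehog co-receptors, and Gli1, a target and effector of the pathway. Boc stood at 66.2, 116 and 75.6 CPM in ImC, 20.6, 14.3 and 1.98 CPM in MatC and 20.9, 25.9 and 20.7 CPM in Bone. All 6 mineralizing libraries lay below all ImC libraries. Boc changed by -2.35 ± 0.47 (SE) with an adjusted p of 0.0068 and Gli1 by -2.11 ± 0.49 (SE) with an adjusted p of 0.013, and both calls were lost with library size only, where no gene of the list was a shared decrease. The call of Gli1 was also lost without ImC3, where its change was -1.04. Pthlh, the PTHrP ligand of resting chondrocytes, fell by 5.42 ± 0.81 (SE), with -3.35 in MatC and -7.49 in Bone. Ihh, the ligand of prehypertrophic cells, was the one increase.

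Other signalling lists held few shared genes. In the FGF list 4 of 17 rose and 4 fell (23.5% each, beside 11.7% and 13.8% of all genes tested). Its shared increases were Dusp6 and Spry1, feedback inhibitors of the pathway, and its shared decrease was the receptor Fgfr2 (-1.31 in MatC and -1.76 in Bone), whose call was lost with library size only. Between 0 and 2 of the 4 increases were called without ImC1, ImC2, MatC1, MatC2 or any 1 Bone library, and 2 of the decreases without ImC3. In the IGF list 2 of 13 rose (15.4%) and 3 fell (23.1%), or 1 rose without ImC1 and 1 fell without ImC2. Igf2, a fetal growth factor, stood at 5713, 8609 and 11400 CPM in ImC, 5103, 2781 and 2809 CPM in MatC and 1282, 694 and 1455 CPM in Bone. It fell by 2.09 ± 0.37 (SE) with an adjusted p of 0.00385, and its Bone libraries lay below all others. Among vascular and nerve guidance signals 7 of 27 rose (25.9%) and 4 fell (14.8%), or 4 and 1 without ImC1 and with library size only. Between 1 and 2 fell without ImC2, with the replicate block or without any 1 Bone library. Slit3, a repulsive guidance ligand, was shared with 3.88 in MatC and 4.73 in Bone and an adjusted p of 0.00291.

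C4b and Car9 led the shared decreases among genes with a mean of at least 20 CPM in ImC. C4b, a complement component (chr17:34728380-34743882, - strand), stood at 18.5, 19.5 and 38.9 CPM in ImC, 0, 0.0705 and 0 CPM in MatC and 0.0541, 0 and 0 CPM in Bone. MatC and Bone held 1 read each, and reads can be split with its near-identical copy C4a. The level was 777-fold (95% counting interval 139 to 30700) lower in MatC and 1200-fold (95% counting interval 216 to 47600) lower in Bone, with an adjusted p of 2.97e-05. It remained called but was not shared without MatC1, MatC2 or Bone1. Car9, a carbonic anhydrase induced by hypoxia (chr4:43506966-43513729, + strand), stood at 13.2, 61.5 and 4.13 CPM in ImC, 0.0758, 0.282 and 0 CPM in MatC and 0, 0.257 and 0.0563 CPM in Bone. ImC2 was the highest ImC library, and the 6 other libraries held 9 reads in all. The change of Car9 was -7.71 ± 0.95 (SE) with an adjusted p of 0.000708, and it was -7.00 with limma-voom, -6.09 without ImC2, -8.34 without MatC2 and -8.40 without Bone2.

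Other complement and acute phase genes moved in both directions. Serpina3n, an acute phase inhibitor, fell by 4.47 on the log2 scale in MatC and 2430-fold (95% counting interval 435 to 95900) in Bone, where 1 read was left, so it was not shared. Serping1, an inhibitor of complement, rose and was shared with 4.82 in MatC and 4.10 in Bone, and its change of 4.46 was 5.68 without ImC3.

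Sox11 stood at 408, 771 and 394 CPM in ImC, 148, 84.7 and 50.4 CPM in MatC and 55.4, 41.9 and 78.3 CPM in Bone. Each ImC library lay above all others. Sox11 fell by 2.82 ± 0.37 (SE) with an adjusted p of 0.000981, -2.47 in MatC and -3.16 in Bone. P4ha3, a subunit of collagen prolyl 4-hydroxylase, stood at 59.9, 19.9 and 86 CPM in ImC, 7.81, 13 and 9.9 CPM in MatC and 4.76, 5.05 and 6.7 CPM in Bone and changed by -2.88 ± 0.39 (SE) with an adjusted p of 0.00112. Lin7a, a scaffold protein of cell polarity, changed by -4.92 ± 0.61 (SE) with an adjusted p of 0.00078, and by -3.61 without ImC2. Fam198a changed by -3.86 ± 0.51 (SE) with an adjusted p of 0.000995 and Syne4, a nuclear envelope protein of the nesprin family, by -3.33 ± 0.29 (SE) with an adjusted p of 0.000137.

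Genes of cell division fell. In the cell cycle list 14 of 24 were lower and 1 was higher, with a median of -1.08, and 4 of the lower genes were shared: Ccnd1, Cdkn2c, Mcm5 and Tpx2. Top2a, topoisomerase II alpha of dividing cells, stood at 393, 404 and 229.5 CPM in ImC, 79.9, 125 and 83.5 CPM in MatC and 51.4, 34.7 and 50.4 CPM in Bone. All 6 MatC and Bone libraries lay below all ImC libraries, and its changes, -1.83 in MatC and -2.91 in Bone, were just too far apart to be shared. Cdkn1a, the inhibitor p21, was the one increase, at 2.17, 5.96 and 4.49 CPM in ImC, 75.1, 101 and 71.8 CPM in MatC and 118, 100.5 and 111 CPM in Bone. Every ImC library lay below all others, and it rose by 4.49 ± 0.38 (SE) with an adjusted p of 0.000111, 4.28 in MatC and 4.70 in Bone. The number of lower genes in the list was 7 without ImC1, 6 without ImC2, 9, 7 and 8 without Bone1, Bone2 and Bone3, and 4 with library size only. The number shared ran from 1 to 8 as 1 library was left out, with 8 without ImC3 or MatC2 and 1 without ImC2, Bone1 or Bone3.

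Further shared decreases were named for their size among genes above 20 CPM in ImC. Casc5, a kinetochore scaffold, stood at 36.1, 35.8 and 34.5 CPM in ImC, 3.56, 4.93 and 7.07 CPM in MatC and 3.41, 2.4 and 2.81 CPM in Bone and changed by -3.21 ± 0.26 (SE) with an adjusted p of 9.64e-05. Sapcd2, a regulator of spindle orientation, changed by -3.90 ± 0.39 (SE) with an adjusted p of 0.000278, and Iqgap3, a scaffold of proliferating cells, by -2.94 ± 0.45 (SE) with an adjusted p of 0.00205. Hist1h2ap, a replication histone, changed by -3.35 ± 0.49 (SE) with an adjusted p of 0.00163, and its reads can be split with near-identical histone genes. That the 3 ImC libraries lay above all 6 others was a condition for naming these genes, so it is not a result.

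**Figure D3:**
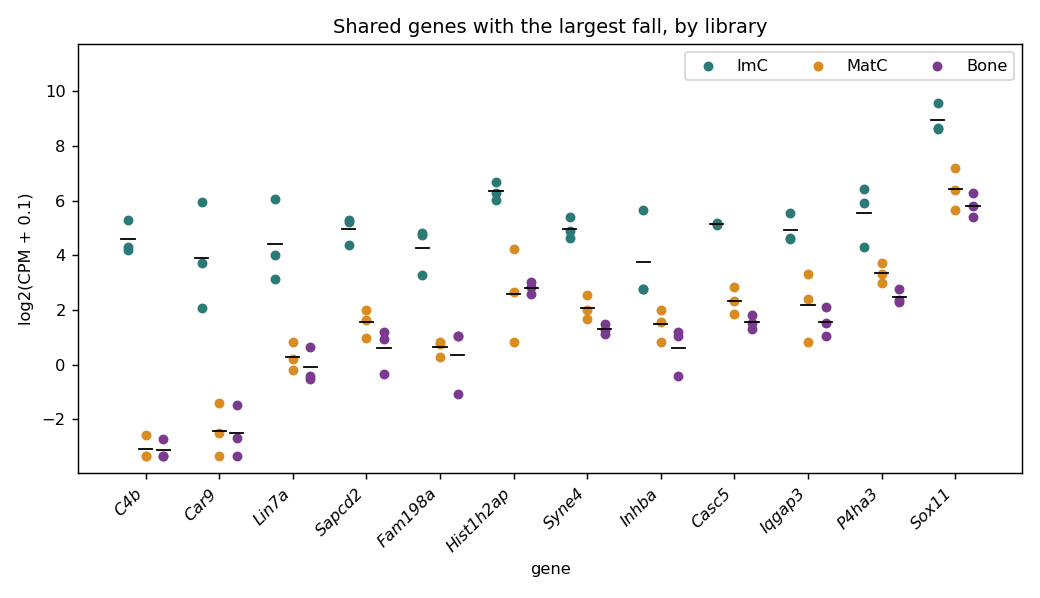
Levels of the 12 shared genes with the largest decreases among those with a mean of at least 20 CPM in ImC and no overlap with the other groups, as log2 of CPM plus 0.1, 1 point per library and a black bar at the mean of the 3 log values of a group. In each gene the ImC points lie above all MatC and Bone points, and ImC2 lies above the other ImC libraries in Car9, Lin7a and Inhba.

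Genes of hypoxia and glycolysis included 7 decreases and 1 increase among 25 tested, with 4 decreases without ImC2 or with library size only and 11 without MatC3. Epas1, the hypoxia-inducible factor HIF-2alpha, was the increase, at 1.17, 0.695 and 0 CPM in ImC, 11.1, 12.6 and 3.96 CPM in MatC and 6.93, 9.08 and 7.83 CPM in Bone. It was shared with 3.91 in MatC and 3.67 in Bone. The change was 3.79 ± 0.83 (SE) with an adjusted p of 0.0101, and it was 4.51 without ImC1 and 4.79 with limma-voom. Hk2, hexokinase, fell by 1.93 ± 0.22 (SE) with an adjusted p of 0.000456. Egln3, a prolyl hydroxylase, changed by -2.34 ± 0.48 (SE) with an adjusted p of 0.00807, and its call was lost without ImC2, at -1.30.

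Markers of immature chondrocytes fell, but few were shared. Of the 26 tested, 24 were lower, and 2 of these, Sox6 and Chad, were shared (1 without MatC2 or Bone2). In 15 the decrease was more than 1 larger in Bone, and 7 had a positive change in MatC. The median over the list was -0.64 in MatC and -7.67 in Bone. Every Bone library lay below all ImC libraries in each of the 24 genes, while MatC1, MatC2 and MatC3 did so in 14, 17 and 8 genes.

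The SOX factors that drive this matrix differed in how evenly they fell. Sox6 stood at 157, 211 and 110.5 CPM in ImC, 55, 39.7 and 90 CPM in MatC and 39.5, 36 and 40.7 CPM in Bone. All 6 mineralizing libraries lay below all ImC libraries, and it changed by -1.71 ± 0.29 (SE) with an adjusted p of 0.00312, -1.38 in MatC and -2.04 in Bone. Sox5 stood at 302, 216 and 374 CPM in ImC, 71, 53.5 and 78.6 CPM in MatC and 6.71, 5.22 and 5.12 CPM in Bone, with -2.14 in MatC and -5.70 in Bone. Sox9 stood at 869, 885 and 550.4 CPM in ImC, 458, 199.6 and 628 CPM in MatC and 28, 44.6 and 38.4 CPM in Bone, with -0.84 in MatC and -4.38 in Bone, and MatC3 lay within the ImC range. Bone was lower than MatC for Sox5 (adjusted p = 0.000314 by edgeR) and Sox9 (adjusted p = 0.00243), and the difference did not pass for Sox6 (adjusted p = 0.289, interval -1.43 to 0.11).

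In several matrix genes Bone and MatC were far apart. Acan, aggrecan, stood at 1129, 865 and 1347 CPM in ImC, 969, 630 and 1520 CPM in MatC and 0.596, 0.856 and 1.91 CPM in Bone, and changed by -0.10 in MatC and -9.93 in Bone. MatC overlapped ImC and Bone lay at about 1 CPM. Bone was again far below ImC for Matn1, matrilin 1, with -0.36 in MatC and -10.27 in Bone, for Susd5 with -0.91 in MatC and -10.35 in Bone and for Col9a1, a type IX collagen chain, with 0.19 in MatC and -8.91 in Bone. Col9a1, Lect1, Prelp and Hoxa10 were the leading genes with opposite signs, positive in MatC and negative in Bone, and in all of them the MatC libraries overlapped those of ImC. Scrg1, a cartilage matrix gene, held 0 reads in Bone and was there at least 1970-fold lower, beside a log2 fold change of -1.48 in MatC.

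Sulfate and glycosaminoglycan genes followed in smaller steps. In the glycosaminoglycan list 7 of 27 fell and 1 rose, with a median of -0.65. Slc26a2, the sulfate transporter, stood at 803, 537 and 1023 CPM in ImC, 324, 346 and 327 CPM in MatC and 65, 57.9 and 66.4 CPM in Bone, and its changes were -1.24 in MatC and -3.64 in Bone. Csgalnact1, which starts chondroitin sulfate chains, changed by -0.77 in MatC and -3.99 in Bone. Chst13, a chondroitin sulfotransferase, was the increase, at 4.51 in MatC and 7.11 in Bone, and its change of 5.81 was 7.88 without ImC3.

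Collagen processing and extracellular proteases moved in part. Of 24 collagen processing genes 4 rose (16.7%) and 5 fell (20.8%), beside 11.7% and 13.8% of all genes tested. Lox, lysyl oxidase, rose by 5.83 in MatC and 7.85 in Bone, while Loxl3 changed by -1.0 in MatC and -4.62 in Bone and the lysyl hydroxylases Plod1, Plod2 and Plod3 fell by 1.09, 1.62 and 0.95 on the log2 scale. The 3 Plod calls were lost with library size only, and the change of Lox, 6.84, was 7.73 without ImC3. Of 25 proteases and inhibitors 8 rose, and Mmp13 was the shared one, while 5 were shared without MatC3 and no increase was shared with library size only. Timp1, a metalloproteinase inhibitor, rose by 1.53 in MatC and 2.73 in Bone.

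The osteoblast list rose in 27 of 31 cases, and its median was 6.24, or 5.74 with genes at 0 reads in ImC set at their bound. The change was larger in Bone by more than 1 on the log2 scale in 20 of the 27. The 6 shared genes were Dlx5, Dmp1, Postn, Runx2, Spp1 and Tnfsf11. The shared count was 2 without MatC2, with the replicate block or with library size only and 3 without Bone3. Tmem119, a membrane protein of osteoblasts, stood at 4.25, 6.35 and 2.06 CPM in ImC, 89.2, 145 and 33.7 CPM in MatC and 449, 484 and 485 CPM in Bone. Every Bone library lay above every MatC library and every MatC library above every ImC library, and the difference of Bone and MatC passed (adjusted p = 0.0278 by edgeR). In MatC3, 20 of the 27 lay above all ImC libraries.

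Some called increases were far apart in the tissues. Col10a1 and Ihh were higher in MatC than in Bone (adjusted p = 0.000367 and adjusted p = 0.00167 by edgeR). Ihh stood at 1, 0.248 and 0.142 CPM in ImC, 145, 69.2 and 254 CPM in MatC and 1.79, 3.6 and 3.66 CPM in Bone, and its change of 5.61 was 6.71 without ImC1, while that of Col10a1, 6.79, was 6.17 without MatC3. Ccdc80, a secreted matrix protein, stood at 1.83, 3.72 and 3.35 CPM in ImC, 110.3, 72.6 and 332 CPM in MatC and 2.92, 2.4 and 4.17 CPM in Bone. Its Bone libraries overlapped those of ImC and its MatC libraries lay above both. Msx1, a homeobox factor, and Lhx8, a LIM homeobox factor, went the other way. Msx1 stood at 1.83, 0.745 and 5.2 CPM in ImC, 3.56, 2.89 and 1.41 CPM in MatC and 85.2, 83.1 and 63.5 CPM in Bone, and its change of 2.51 was 3.56 without ImC3. Lhx8 held 3 reads in ImC, 2 in MatC and 1827 in Bone, 587-fold (95% counting interval 201 to 2850) above ImC. Hoxa9 was the reverse, with 97.7, 66.2 and 194 CPM in ImC, 51.8, 54.3 and 47.8 CPM in MatC and 2 reads in Bone. The kit does not mark strand and Hoxa9 and Hoxa10 overlap other transcripts of their cluster, so their reads cannot be told apart from those. The labels name no anatomical site, so tissue and site of origin cannot be told apart for Msx1, Lhx8, Hoxa9 and Hoxa10.

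The closest matches between the tissues were found mostly in genes with modest changes. Of the 16 shared genes above 20 CPM with the nearest MatC and Bone changes, the increases were Bmp8a, Cab39, Cndp2, Cpe, Gpx3, Rala, Rnd3 and Rps6kb1 and the decreases Ampd2, Cbx6, Cdc42se1, Ctcf, Dtymk, Phf12, Rprd1b and Tor1b. Gpx3, the secreted glutathione peroxidase, stood at 3.42, 7 and 3.42 CPM in ImC, 12.5, 29.3 and 51.8 CPM in MatC and 31.4, 29.6 and 31.7 CPM in Bone. Its ImC libraries lay below all others, and its changes were 2.73 in MatC and 2.73 in Bone with a 95% interval of the difference of -1.04 to 1.04. Rps6kb1, the S6 kinase of the mTOR pathway, stood at 71.9, 78.6 and 68.2 CPM in ImC, 189, 158 and 255 CPM in MatC and 183, 202 and 209 CPM in Bone and changed by 1.46 in MatC and 1.44 in Bone. Ctcf, the chromatin insulator protein, stood at 131, 119 and 235 CPM in ImC, 65.3, 78.2 and 53.5 CPM in MatC and 76.5, 55.3 and 61.4 CPM in Bone and changed by -1.30 in MatC and -1.33 in Bone. In both genes the groups of ImC and the mineralizing tissues did not overlap. Cbx6, a chromobox protein of Polycomb complexes, changed by -1.96 ± 0.28 (SE) with an adjusted p of 0.00136, -1.94 in MatC and -1.97 in Bone. Of the 16, Bmp8a, Gpx3 and Cbx6 kept their call with library size only.

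Endothelial, macrophage and osteoclast markers rose with the shared genes. Of 20 endothelial markers 14 were higher and all 14 were shared, with a median log2 fold change of 5.15, or 5.04 with genes at 0 reads in ImC at their bound. Cdh5, VE-cadherin of endothelial junctions, held 3 reads in ImC and stood at 14.8, 28.1 and 0.566 CPM in MatC and 5.04, 21.6 and 18.5 CPM in Bone, ratios of 296-fold (95% counting interval 101 to 1440) and 217-fold (95% counting interval 73.8 to 1050). Cldn5, Robo4 and Sox17 held 0 reads in ImC. Without MatC2 the number shared was 5, and with library size only 9. The summed level of the 20 markers was 18.7 to 41 CPM in ImC, 131 to 451 CPM in MatC and 89.1 to 257 CPM in Bone. In MatC3, 9 of the 14 lay above all ImC libraries, and Cdh5 stood at less than 1 CPM there.

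Macrophage and leukocyte markers rose in 11 of 15 cases, with 6 shared, and osteoclast markers in 9 of 15, with 2 shared, Itgb3 and Tnfrsf11a (1 without MatC2 or Bone1 or with the replicate block). Without ImC1 or with a minimum count of 30, 7 macrophage and leukocyte markers were higher, and 2 were shared with that minimum and 3 with library size only. C1qa, a complement chain made by macrophages, held no read in ImC and was at least 57.8-fold higher in MatC and at least 34.1-fold higher in Bone. The 18 macrophage and leukocyte markers summed to 11.9 to 32.5 CPM in ImC, 28.6 to 127 CPM in MatC and 63 to 151 CPM in Bone, and Aif1, C1qa, C1qb, Emr1, Mrc1, S100a8 and S100a9 were at 0 reads in ImC. The 15 osteoclast markers summed to 73.3 to 177 CPM, 187 to 804 CPM and 599 to 1260 CPM, with Calcr and Dcstamp at 0 reads in ImC. In MatC3, 5 of the 11 and 5 of the 9 risen markers lay above all ImC libraries.

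The 11 erythroid markers summed to 10.5, 21.6 and 1430 CPM in ImC, 874 to 3510 CPM in MatC and 6440 to 9210 CPM in Bone, so ImC3 stood apart within its group, and 2 of 8 tested, Slc4a1 among them, were higher and shared. Without ImC3, 5 erythroid markers were higher and 1 was shared, and without ImC1, ImC2 or Bone2 1 was higher. No erythroid marker was shared without MatC2, with limma-voom, with the replicate block or with library size only. The call of Slc4a1 was lost with limma-voom and without ImC1, ImC2, ImC3 or Bone2. Markers of perichondrium, tendon and fibroblasts summed to 442 to 3310 CPM in ImC, 2130 to 3990 CPM in MatC and 3850 to 4980 CPM in Bone, and those of pericytes and smooth muscle to 691 to 1120 CPM, 426 to 625 CPM and 71 to 111 CPM. Nerve and glia markers summed to 113 to 563 CPM in ImC, 113 to 261 CPM in MatC and 6.68 to 12.6 CPM in Bone, with 1 of 10 higher and 3 lower. Muscle markers were highest in MatC2, at 626 CPM. MatC2 was also the highest MatC library in the endothelial, macrophage, osteoclast and osteoblast sums. The endothelial, macrophage and osteoclast sums were 131, 28.6 and 200 CPM in MatC3, beside 162, 35.1 and 187 CPM in MatC1. The part of these other cell types in the shared increases was not tested. Without MatC2, 511 higher and 691 lower genes were shared.

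**Figure D4:**
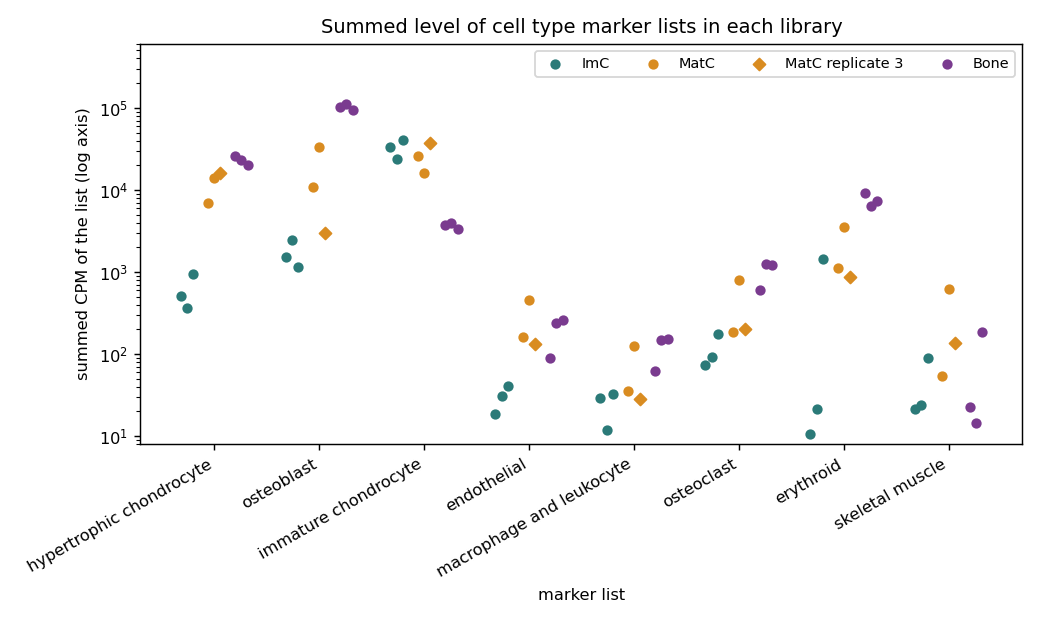
Summed CPM of the markers of 8 cell types in each library, on a log axis, 1 point per library in the order ImC, MatC, Bone, with MatC3 as a diamond. Hypertrophic, osteoblast, endothelial, osteoclast and erythroid sums were lower in ImC1 and ImC2 than in any MatC or Bone library, immature chondrocyte sums were lowest in Bone, and erythroid markers in ImC3 reached the MatC range. Most of the hypertrophic sum in Bone came from Ibsp, which is in the osteoblast list as well.

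Across all 32 lists the share of called members differed widely. The highest shares of increases were in the osteoblast list (27 of 31), the macrophage and leukocyte list (11 of 15), the endothelial list (14 of 20) and the Notch list (9 of 14), beside 11.7% of all genes tested. The highest shares of decreases were in the immature chondrocyte list (24 of 26), the cell cycle list (14 of 24) and the hedgehog and PTHrP list (6 of 15), beside 13.8%. Lists near the background were secretory and endoplasmic reticulum genes, with 3 of 22 higher (1 without Bone2) and 1 lower, and pericyte and smooth muscle markers, with 1 of 9 in each direction.

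**Figure D5:**
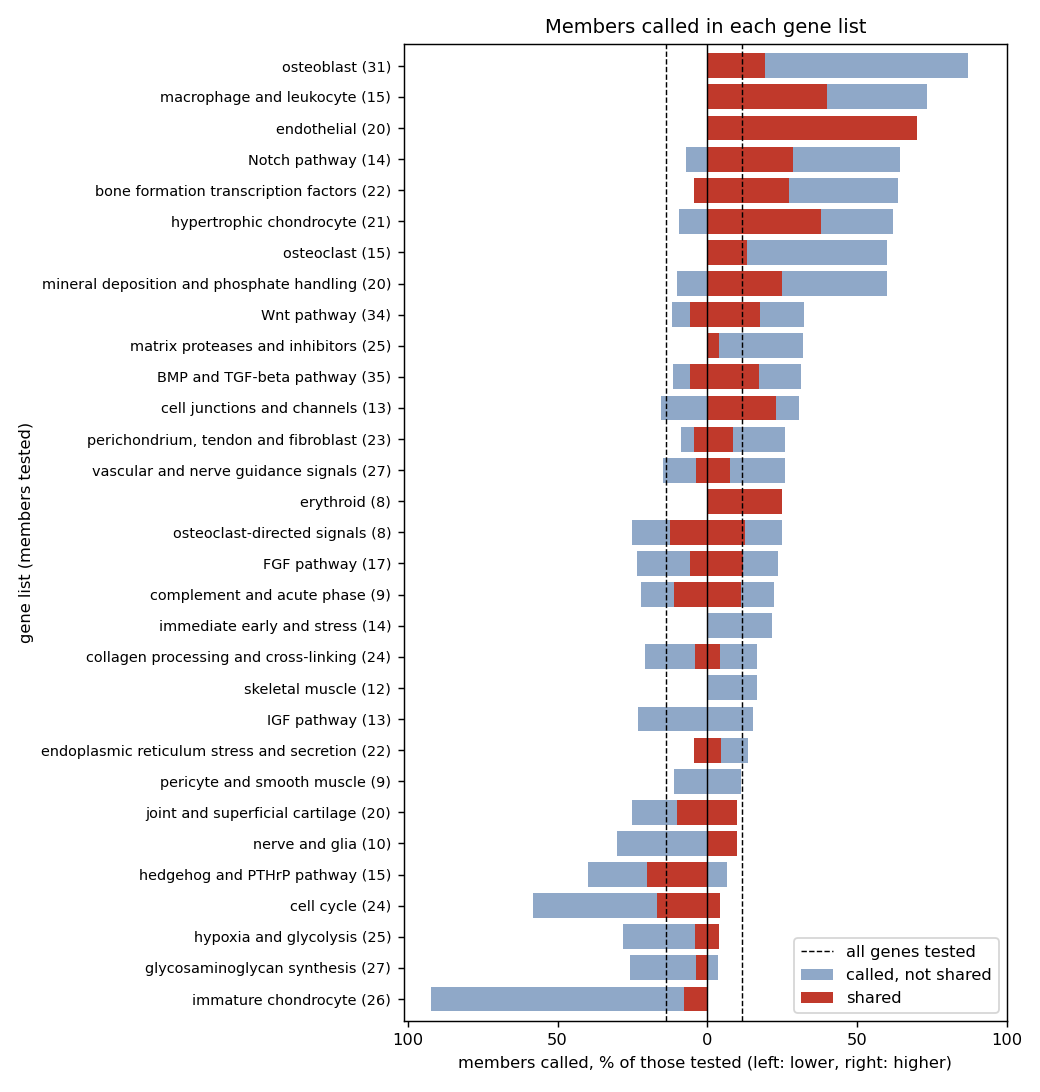
Percent of the tested members of each list that were called higher (to the right) or lower (to the left), with the shared part in red and the rest in blue, for the 31 lists with at least 8 members tested. Dashed lines mark the 11.7% and 13.8% of all genes tested. The endothelial bar is shared throughout, while most of the osteoblast and immature chondrocyte bars is not.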

How the data were processed

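The deposited table holds raw read counts per gene in 9 libraries, 3 each of immature cartilage (ImC), mature cartilage (MatC) and bone (Bone). Reads were prepared with Trimmomatic 0.30, TopHat2, Bowtie2, HTSeq and edgeR on mm10, per the submitters' processing notes, which give no role for each. Per the labels' protocols the RNA was amplified before library preparation. The deposited normalized table was not used here. Strand handling during counting is not given in the sources used here.

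All 9 libraries entered 1 edgeR 4.0.16 quasi-likelihood fit (R 4.3.3, TMM factors, default gene filter at a minimum count of 10), which left 14257 of 43472 genes. The contrast was the mean of MatC and Bone on the log2 scale minus ImC, with Benjamini-Hochberg adjustment over all genes tested. The SE was obtained as log2 fold change / √F. CPM are reads per 1000000 with TMM-scaled library sizes. Where a group held 0 reads, a fold is a lower bound from 3 reads over the group. Where it held 1 to 3 reads, a ratio with an exact 95% counting interval is given, since fitted values then depend on the prior count. Intervals cover counting error only.

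Genes were named by rule: the shared genes with the largest changes, those with the closest changes above 20 CPM, and members of 32 lists. The leading genes with unequal or opposite changes were named as well. For the shared genes with the largest changes, no overlap between ImC and the other libraries was required, so it is not a result. The members and lists were chosen with earlier results of these data known, and 13373 gene symbols (93.8%) matched GENCODE M21 on GRCm38 for coordinates. Alternatives were DESeq2 1.42.0, limma-voom (limma 3.58.1), other scalings and filters, a replicate block and leaving out each library. On simulated counts for 14029 genes with 3 libraries a group, the fit recovered 1.49% of 2-fold, 37.3% of 4-fold and 87.7% of 8-fold changes in this contrast, with 8 false calls. The simulation changed 67, 67 and 66 genes by these amounts, equally in MatC and Bone and only among better-read genes. In the real data 3642 genes were called, so these rates need not hold there.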

Additional observations from a re-analysis of the deposited data

Results flagged for a closer look

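Of the 183 genes singled out by the naming rules, 46 differed between Bone and MatC by edgeR's test of that difference with Benjamini-Hochberg adjustment, beside 6.05% of all genes tested. Of the 46, 36 were lower and 10 higher in Bone, and 16 had been chosen for widely different or opposite changes in the tissues, so their values are a description. The values are Bone minus MatC on the log2 scale. Among cartilage matrix genes and their regulators Acan at -9.83, Col2a1 at -3.98, Col9a1 at -9.10, Col9a2 at -7.61, Col9a3 at -9.19, Lect1 at -10.03, Matn1 at -9.90, Prelp at -7.43, Susd5 at -9.44 and Scrg1 at -12.20 were lower in Bone, with Sox5 at -3.57, Sox9 at -3.53 and Fgfr3 at -3.40. Glycosaminoglycan and collagen processing genes stood lower as well, with Xylt1 at -3.64, Csgalnact1 at -3.22, Slc26a2 at -2.40, Loxl3 at -3.62 and Plod2 at -1.62. Of the hypertrophic list Col10a1 at -10.36, Ihh at -5.70 and Foxa3 at -8.39 were lower in Bone. Signalling genes and channels lower in Bone were Sfrp5 at -4.99, Gdf10 at -4.47, Fgfrl1 at -1.96 and Trpv4 at -2.33. Mineral and metabolic genes among them were Mgp at -4.44, Slc20a1 at -1.84, Car12 at -7.72 and Hk2 at -1.02. The remaining decreases were S100b at -7.29, Cspg4 at -3.54, Serpina3n at -6.31, Ccdc80 at -5.75, Hoxa9 at -9.99, Hoxa10 at -9.50 and Itih5l-ps at -10.73. The genes higher in Bone were the factors Lhx8 at 9.05, Msx1 at 4.80, Dlx3 at 2.22 and Tcf7 at 1.52 and, beside them, Crym at 4.87, Tmem119 at 2.40, Bmp4 at 2.34, Dcn at 2.72, Ccl9 at 3.01 and Timp1 at 1.20. Scrg1 and Itih5l-ps held 0 reads in Bone, Car12, Serpina3n and Sfrp5 held 1 and Hoxa9 held 2 there, Crym held 0 in ImC, and Lhx8 held 3 in ImC and 2 in MatC, so their fitted values depend on the prior count.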

How the results depend on the processing

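With library size only, 788 genes were higher, 1090 lower and 178 shared higher, and 27.5% of the 1262 shared genes were kept, so the shared calls split 178 to 615 in place of 682 to 580. Leaving out 1 library gave 963 to 2135 higher, 1186 to 2303 lower, 447 to 982 shared higher and 359 to 733 shared lower genes, with the most without MatC3, and kept 60.5% (without Bone3) to 83.3% (without MatC3) of the 1262. A limit of 0.5 on the distance left 374 and 307 shared genes, a change of at least 2 left 402 and 141, and a call in each tissue left 365 and 176. Correlations of same-numbered deviations ran from -0.131 to 0.24. Differently numbered samples were not correlated for comparison, so these values do not settle whether the replicate numbers pair the samples. The main fit used no pairing. With the replicate block 1528 genes were higher and 1541 lower, with 580 and 452 shared. DESeq2's and limma-voom's tests, DESeq2 size factors, no mitochondrial genes and other filters kept each of these counts within 1.5 times. Over the 183 named genes, 2889 of the gene and setting pairs kept direction and call, and 212 kept direction only. In MatC3 3 reads were worth 0.849 CPM, so lower levels there rest on fewer than 3 reads.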
